A study of Homo sapiens with 9 samples.

Results

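The mitochondrial ribosomal proteins are the protein part of the ribosome that works inside mitochondria. Their genes lie in the nucleus; the proteins are made in the cytosol, imported, and assembled with mitochondrially transcribed ribosomal RNA into a large and a small subunit. This ribosome translates the few messages of the mitochondrial genome, all of them for subunits of the respiratory chain and ATP synthase. The genes were taken by name, as protein-coding genes with an MRPL or MRPS symbol, which gave 78 of the 37118 genes in the table. By symbol, 49 belong to the large subunit (MRPL) and 29 to the small subunit (MRPS). In the current ribosome nomenclature, 30 of the 49 carry the name of a bacterial counterpart and 19 a name used only for mitochondria. Of the 29, 16 carry a bacterial counterpart's name and 12 a mitochondrial one. MRPS18A and MRPS18B, though related in sequence to bacterial S18, are counted with the mitochondrial names, since MRPS18C holds the S18 position. The last of the 29, MRPS36, keeps a ribosomal name but encodes a subunit of the 2-oxoglutarate dehydrogenase complex. MRPS18A and MRPS30 carry small-subunit names, yet their proteins sit in the large subunit, so subunits were also compared by structure.

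The cells were A375, an established human melanoma line, labelled wild type and given 0, 20 or 40 mM metformin, a biguanide used against diabetes that lowers mitochondrial respiration at complex I. Each dose had 3 libraries of polyadenylated RNA, and the 0 mM cells served as the untreated group. The sources used here do not give the time of treatment. Nor do they say whether the 3 libraries came from separate cultures, so the p-values reflect library-to-library spread, part of which may be technical. The stated subject of the study is how metformin acts on A375 melanoma cells.

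Library totals ran from 65738242 to 75629413 counts, and no 2 of the 9 libraries were identical. The melanocyte-lineage marker SOX10 averaged 95.8 FPKM, the unit of level used here, which scales fragments by gene length and library size, over the 9 libraries, and MIA, a protein secreted by melanoma cells, averaged 42 FPKM. The pigment genes PMEL, MLANA, TYR and DCT were all under 1 FPKM. Of 12 markers of other cell types in the table, 6 had a mean below 0.1 FPKM, among them the leukocyte markers PTPRC and CD3E, at or near 0. A mean of at least 1 FPKM was reached by 4 of the 12, the highest at 11.1 FPKM. The summed FPKM of those 12 was 14.9 to 16.5 at 0 mM, 22.1 to 24.6 at 20 mM and 28.9 to 36.7 at 40 mM, and CD68, a lysosomal protein of macrophages and of other cells, gave most of that difference. The summed FPKM of 11 melanoma markers was 164 to 184 at 0 mM, 153 to 174 at 20 mM and 128 to 155 at 40 mM. What part these shifts have in the results below was not tested. Replicate 3 of 40 mM stood apart from the rest of its group. It had the lowest total, and on the second principal component it lay at -22.6, against 17.7 and 15.2 for the other 40 mM libraries. The counts of called genes and the medians at 40 against 0 mM are therefore also given without it.

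All 78 genes were expressed well enough to be tested. At 0 mM, the large-subunit genes had a median level of 19.3 FPKM with a range of 4.05 to 106 FPKM, and the small-subunit genes had a median of 16.5 FPKM with a range of 5.53 to 108 FPKM. The highest gene thus stood 26.7-fold above the lowest at the level of RNA, although most of the proteins are present once in each ribosome. Among large-subunit genes MRPL51, MRPL12 and MRPL41 had the highest mean levels, and MRPL46, MRPL42 and MRPL22 the lowest. Among small-subunit genes MRPS34, MRPS26 and MRPS35 were highest, and MRPS33, MRPS5 and MRPS6 lowest. In the sums below, a highly expressed gene weighs more than a weakly expressed one.

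Together, the family's messages were lower with metformin in both subunits. The 78 genes took 0.525%, 0.515% and 0.499% of all counts in untreated cells. At 20 mM they took 0.484%, 0.478% and 0.484%, and at 40 mM 0.470%, 0.478% and 0.445%. All 6 treated libraries lay below all 3 untreated ones, while the 20 and 40 mM libraries met at 0.478%. Summed over the large-subunit genes, FPKM was 1426, 1408 and 1345 in untreated cells; at 20 mM it was 1282, 1246 and 1287, and at 40 mM 1233, 1255 and 1123. Summed over the small-subunit genes, it was 712, 717 and 676 in untreated cells; at 20 mM it was 644, 634 and 633, and at 40 mM 626, 623 and 592. In both subunits each treated library was under each untreated one. As these are bulk samples, fewer cells of a type and less RNA per cell cannot be told apart. The ratio of the large to the small sum was 1.99 ± 0.020 at 0 mM, 2.0 ± 0.033 at 20 mM and 1.96 ± 0.059 at 40 mM (SD, n = 3 each). The 3 groups overlapped in this ratio.

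**Figure D1:**
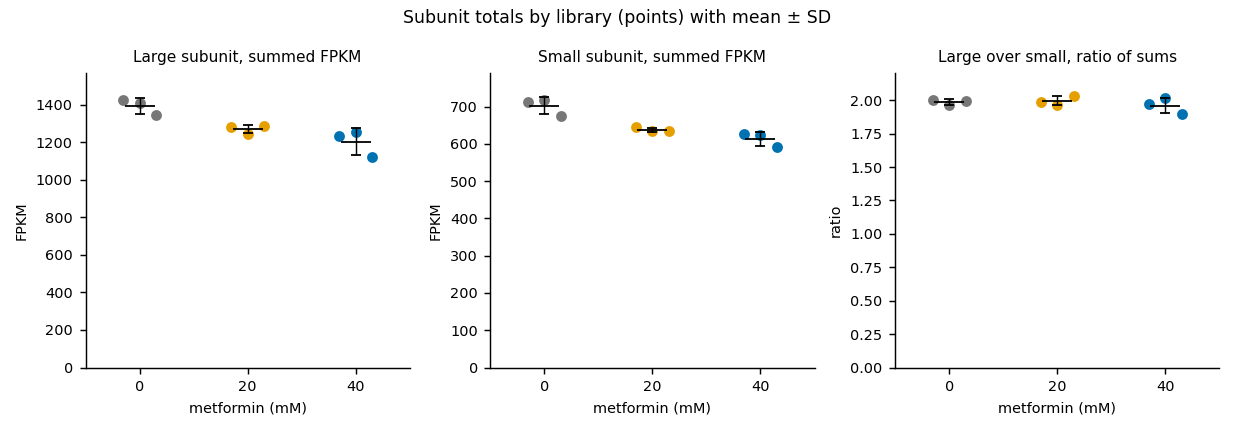
Summed FPKM of the 49 large-subunit genes (left) and of the 29 small-subunit genes (middle), and the ratio of the sums (right), against metformin dose in mM; points are libraries, bars the mean ± SD of 3. Both sums were lower in every 20 and 40 mM library than in every 0 mM library, while the ratio stayed between 1.90 and 2.03 in all 9 libraries.

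Gene by gene, changes were tested on the counts with edgeR's quasi-likelihood test over 12394 genes, and a gene was called, here written as rose or fell, at a Benjamini-Hochberg adjusted p under 0.05. At 40 against 0 mM, 43 of the 78 genes fell, 5 rose and 30 were not called. Over all tested genes 56.2% were called, 27.4% lower and 28.8% higher, whereas 55.1% of the large-subunit and 55.2% of the small-subunit genes fell. These were 27 of 49 large-subunit and 16 of 29 small-subunit genes. The 5 that rose were MRPL40, MRPL22 and MRPL42 of the large subunit and MRPS10 and MRPS35 of the small subunit. On leaving out replicate 1 or 2 of 0 mM or replicate 2 of 40 mM, 3 rose, where 48.8% to 51.9% of all tested genes were called. On leaving out replicate 3 of 40 mM, 9 rose, where 57.6% were called. The sizes were modest. The median log2 fold change was -0.21 over the family, -0.19 over the large-subunit genes and -0.22 over the small-subunit genes, against a median of 0.00 over all tested genes. A fall of at least 1.5-fold was reached by 9 of the 78 genes, 5 of the large and 4 of the small subunit, and no rise reached that size. Of the 12394 tested genes, 760 fell and 994 rose by at least 1.5-fold.

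At 20 against 0 mM, 23 genes fell and 4 rose. Over all tested genes 31.6% were called, 15.2% lower and 16.3% higher. The 23 comprised 13 large-subunit genes (26.5%) and 10 small-subunit genes (34.5%), and the 4 that rose were MRPL30, MRPL40, MRPL42 and MRPS10. Median log2 fold changes were -0.10 for the large and -0.11 for the small subunit. All 23 genes that fell at 20 mM also fell at 40 mM, and 20 more (14 large, 6 small) were called lower only at the higher dose. These comparisons share the 0 mM libraries, so such carry-over is partly built in. How often it occurred over all tested genes was not counted. The 23 falls became 12 to 14, and the 4 rises 2, on leaving out replicate 1 or 2 of 0 mM or replicate 2 or 3 of 20 mM. Of all tested genes, 22% to 24% were called in these runs, against 31.6% with all libraries. At 40 against 20 mM, 14 genes fell (6 large, 8 small) and 3 rose, where 29.3% of all tested genes were called, 15.1% lower and 14.3% higher. The 3 rises became 1 on leaving out replicate 2 or 3 of 20 mM (19.4% and 20% of all tested genes called), while 6 rose on leaving out replicate 3 of 40 mM (32.8% called). Median log2 fold changes there were -0.08 for the large and -0.12 for the small subunit; without replicate 3 of 40 mM they were -0.04 and -0.08, where all tested genes had a median of 0.00. In mean level, 28 of 49 large-subunit genes (57.1%) and 17 of 29 small-subunit genes (58.6%) went down at each step from 0 to 20 to 40 mM, against 27.5% of all tested genes. Without that library 35 of the 78 (44.9%) did, against 27.1% of all tested genes.

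FPKM values gave a count that does not depend on the fit. At 40 mM, 39 genes lay lower in every library than in every 0 mM library and 9 lay higher, against 26.8% and 34.4% of all tested genes. At 20 mM the numbers were 35 and 7, against 24.9% and 25.6% of all genes. Between 40 and 20 mM they were 19 and 6, against 18.0% and 25.9%. Without replicate 3 of 40 mM, 43 lay lower and 16 higher at 40 than at 0 mM, against 31.5% and 40.1% of all genes, and 23 lay lower and 16 higher at 40 than at 20 mM, against 24.3% and 35.5%.

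**Figure D2:**
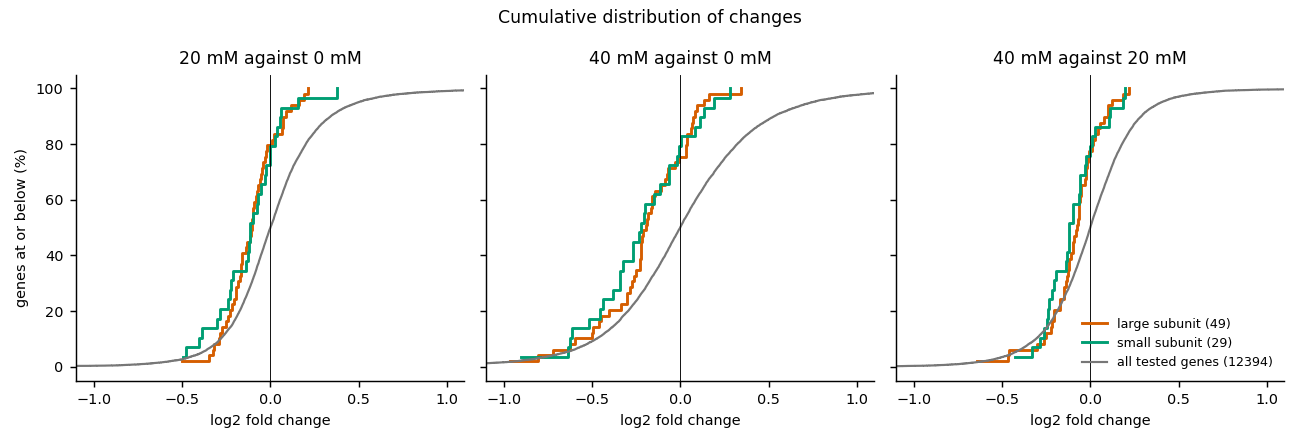
Cumulative share of genes (%) against log2 fold change for the 49 large-subunit genes, the 29 small-subunit genes and all 12394 tested genes, in the 3 comparisons between doses; the axis ends at 1.1 on either side, beyond which lie only genes outside the family. Both subunit curves lie left of the curve of all genes around 0, and they cross each other repeatedly, with medians of -0.19 (large) and -0.22 (small) at 40 against 0 mM.

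The large and the small subunit were then set against each other. The median log2 fold change of the large-subunit genes minus that of the small-subunit genes was 0.01 for 20 over 0 mM, 0.03 for 40 over 0 mM and 0.05 for 40 over 20 mM. When MRPS18A and MRPS30 were moved to the large subunit and MRPS36 was left out, the differences were 0.01, 0.01 and 0.02. Measured in single libraries against the 0 mM mean, the same difference was 0.07, 0.11 and -0.03 at 40 mM, so the 40 mM libraries disagreed on its sign. At 20 mM it was 0.01, -0.05 and 0.02, again with both signs. Values at 0 mM were 0.00, 0.00 and 0.01. The negative 40 mM value came from replicate 3, in which 36 of 49 large-subunit genes (73.5%) and 18 of 29 small-subunit genes (62.1%) had the lowest level of the 40 mM group, against 42.5% of all tested genes. Messages of the mitochondrial genome took 3.77% of the counts in that library and 2.56% and 2.79% in the other 40 mM libraries; the part of either shift in the members' values was not tested. Without it, 24 large-subunit genes fell and 6 rose at 40 against 0 mM, with a median of -0.14, while 18 small-subunit genes fell and 3 rose, with a median of -0.24; 57.6% of all tested genes were called in that fit. The difference between the medians was then 0.10. By name, at 40 against 0 mM, 15 of 30 large-subunit and 8 of 16 small-subunit genes named for a bacterial counterpart fell. So did 12 of 19 and 7 of 12 with a mitochondrial name. These counts are with all libraries, where 27.4% of all tested genes fell.

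**Figure D3:**
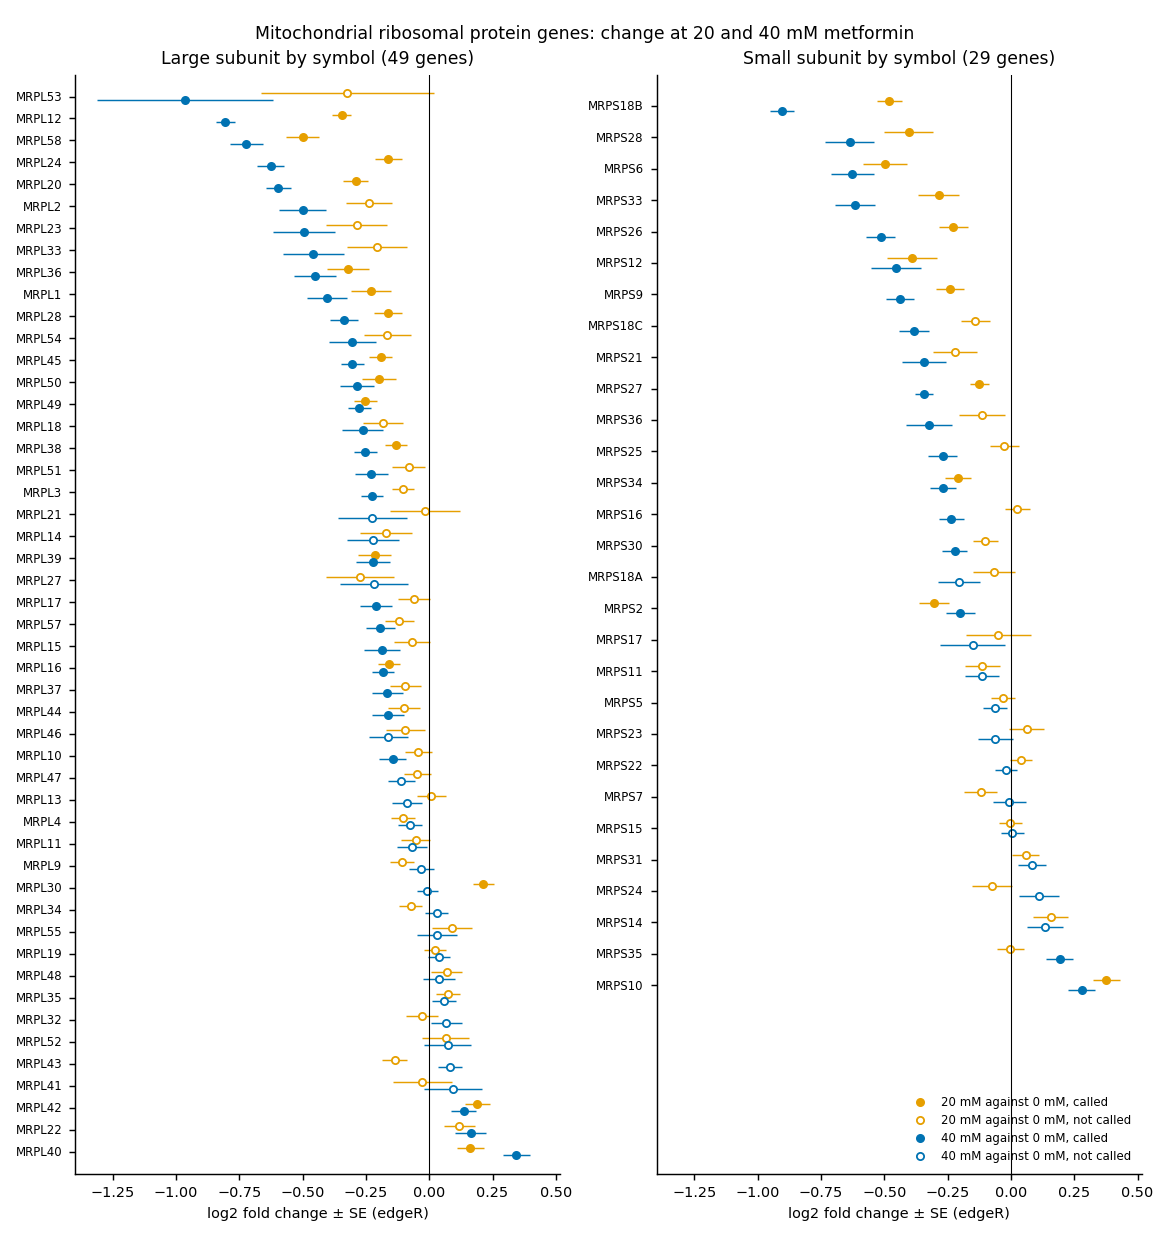
Log2 fold change (x axis, ± SE, edgeR) of each large-subunit gene (left) and small-subunit gene (right) at 20 against 0 mM and at 40 against 0 mM; filled points passed an adjusted p of 0.05. Most points lie left of 0, in both panels the change at 40 mM is mostly the more negative one, and MRPL53 has by far the widest error.

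Promoter sequence is shown for the genes whose values follow, as a view of what lies before genes of the family that moved in opposite directions. Windows of 250 bases before to 50 after the start, from RefSeq on GRCh38.p14, were found for 69 of the 78 genes. The 5 stretches below are the last 100 bases before the start, on the strand of the gene, of MRPL12, MRPL58 and MRPS18B, which fell, and of MRPL40 and MRPS10, which rose; they were chosen after their values were seen. Capitals mark the letters CCGGAAG, the core bound by ETS-family factors such as GABP. The stretches lie at chr17:81703267-81703366 (plus strand, MRPL12), chr17:75012570-75012669 (plus, MRPL58), chr6:30617740-30617839 (plus, MRPS18B), chr22:19432445-19432544 (plus, MRPL40) and chr6:42217862-42217961 (minus, MRPS10). As deposited, the MRPL40 gene begins at base 19431902, so its stretch lies before the RefSeq start but inside the gene as counted.
MRPL12: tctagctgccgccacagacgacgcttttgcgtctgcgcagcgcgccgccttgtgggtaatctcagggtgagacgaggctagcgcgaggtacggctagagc
MRPL58: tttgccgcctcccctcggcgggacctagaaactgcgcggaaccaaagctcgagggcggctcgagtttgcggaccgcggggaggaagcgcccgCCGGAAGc
MRPS18B: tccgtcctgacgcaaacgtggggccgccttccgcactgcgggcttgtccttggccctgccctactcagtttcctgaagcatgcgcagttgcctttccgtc
MRPL40: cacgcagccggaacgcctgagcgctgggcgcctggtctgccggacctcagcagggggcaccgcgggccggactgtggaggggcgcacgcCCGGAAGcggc
MRPS10: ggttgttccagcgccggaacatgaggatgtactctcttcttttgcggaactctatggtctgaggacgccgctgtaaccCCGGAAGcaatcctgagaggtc

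The ETS letters began 8 bases before the start in MRPL58, which fell, and 11 and 22 bases before it in MRPL40 and MRPS10, which rose. MRPL58 held a further match on the other strand, from 193 bases before the start, outside the stretch shown. MRPL12 and MRPS18B, which also fell, did not hold them in their 300 bases. The letters ATGGCGG, the core of the YY1 site, followed the start in MRPL58, MRPS18B and MRPS10, from base 18, 27 and 13 of the transcribed part. Searched on both strands over the whole 300 bases, CCGGAAG occurred in 30 of the 69 genes (43.5%), made up of 18 of 42 large-subunit and 12 of 27 small-subunit genes. Its share was 24.3% of the 8887 tested genes with a window and 12.2% of all 27305 genes with one. ATGGCGG occurred in 24 of the 69 (34.8%), against 13.4% of tested genes and 6.66% of all genes. These motifs cannot overlap each other; 47 genes held at least 1 of them and 7 held both. The NRF1 core, GCGC and TGCGC parted by any base, occurred in 9 of 69 (13%), against 14.3% of tested and 6.98% of all genes. The E-box CACGTG bound by MYC occurred in 9 of 69 (13%), against 13.1% of tested and 8.77% of all genes, and TGATGNAA, the ATF4 element, in 1 of 69, against 2.59% of tested and 4.46% of all genes. Split by the call at 40 against 0 mM, CCGGAAG was held by 18 of 37 genes that fell, 2 of 5 that rose and 10 of 27 not called. ATGGCGG was held by 10, 4 and 10 of these, CACGTG by 7, 1 and 1, the NRF1 core by 6, 0 and 3, and TGATGNAA by 0, 0 and 1. A match of letters is a description and does not show binding.

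Among large-subunit proteins, the stalk recruits translation factors. MRPL12 is the stalk protein itself, the relative of bacterial L7/L12, and has been reported to bind the mitochondrial RNA polymerase as well. It was expressed at 104, 102 and 100 FPKM at 0 mM, 79.9, 81.7 and 79.7 FPKM at 20 mM and 59.6, 60.9 and 58.7 FPKM at 40 mM. The 3 groups were fully separated, and the spread within each was small beside the steps between them. MRPL12 fell by 0.34 ± 0.04 on the log2 scale at 20 against 0 mM (SE, adjusted p = 9.6e-05) and by 0.81 ± 0.04 at 40 against 0 mM (adjusted p = 8.6e-08). Between the treated doses it fell by 0.46 ± 0.04 (adjusted p = 4.5e-05). Its partners at the stalk base moved much less. MRPL10, which anchors the stalk protein, had 18.2, 19.2 and 20.6 FPKM at 0 mM, 18, 19.0 and 19.3 FPKM at 20 mM and 17.4, 17.7 and 18.6 FPKM at 40 mM. These groups overlapped; the change of -0.14 ± 0.05 at 40 against 0 mM passed the test (adjusted p = 0.039), and the call was lost in most of the other settings tried, among them limma and leaving out replicate 3 of 0 mM. MRPL11, also at the stalk base, changed by -0.07 ± 0.06 at 40 against 0 mM and was not called (adjusted p = 0.34). Without replicate 2 of 40 mM it was called lower, at -0.14 (adjusted p = 0.022).

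MRPL53, another protein near the stalk base, had the most negative estimate of the family and the least certain one. It stood at 34.4, 37.8 and 30.6 FPKM at 0 mM, 33.3, 12.3 and 36.6 FPKM at 20 mM and 24.8, 12.2 and 16.8 FPKM at 40 mM. Replicate 2 was low at both treated doses, and the 20 and 40 mM libraries overlapped widely. The change at 40 against 0 mM was -0.97 ± 0.35 (adjusted p = 0.034), while that at 20 against 0 mM was -0.32 ± 0.34 (adjusted p = 0.51). The first call was lost with DESeq2, with limma, with no filter on low values and without any single one of the 0 mM libraries or of replicates 2 and 3 of 40 mM. Its gene overlaps CCDC142 on the same strand, from which reads may not be separable.

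MRPL58 encodes a peptidyl-tRNA hydrolase related to release factors that became a fixed part of the large subunit. Its level was 24.4, 26.7 and 24.9 FPKM at 0 mM, 17.8, 17.1 and 18.9 FPKM at 20 mM and 15.7, 16.5 and 14.9 FPKM at 40 mM, again with no overlap between groups. It fell by 0.50 ± 0.06 at 20 against 0 mM (adjusted p = 0.00028), the largest fall of the family at that dose, and by 0.72 ± 0.06 at 40 against 0 mM (adjusted p = 5.8e-06). Between 40 and 20 mM the change was -0.22 ± 0.06 (adjusted p = 0.025), a call lost in 8 of 19 other settings, with adjusted p up to 0.098.

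The exit tunnel is the passage through which the new protein leaves. MRPL24, a protein near the tunnel's mouth, had 53.2, 49.6 and 51.3 FPKM at 0 mM, 45.2, 46.3 and 46.6 FPKM at 20 mM and 34.8, 36 and 31.5 FPKM at 40 mM. It fell by 0.46 ± 0.05 at 40 against 20 mM (adjusted p = 0.00024). Its change of -0.16 ± 0.05 at 20 against 0 mM passed the test (adjusted p = 0.039), a call lost in 8 of 19 other settings, with adjusted p up to 0.14. MRPL45, which helps to hold the ribosome at the inner membrane, fell by 0.30 ± 0.04 at 40 against 0 mM, to 34.5, 35.6 and 33.8 FPKM against 42.9, 40.0 and 42.4 FPKM at 0 mM (adjusted p = 0.00019). MRPL22, which lines the tunnel, had 8.07, 8.32 and 7.21 FPKM at 40 mM against 6.80, 7.01 and 6.76 FPKM at 0 mM. The change of 0.16 ± 0.06 passed the test (adjusted p = 0.04), but the call was lost in 10 of 19 other settings. Among these were no filter (adjusted p = 0.13), the replicate block (adjusted p = 0.054) and leaving out any 1 of the 0 mM libraries.

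Further large-subunit genes that fell were MRPL20 and MRPL36, both relatives of bacterial proteins that bind ribosomal RNA. MRPL20 had 34.5, 33.8 and 32.6 FPKM at 0 mM, 26.6, 27.9 and 28.0 FPKM at 20 mM and 22.3, 24.2 and 21.8 FPKM at 40 mM, and fell by 0.60 ± 0.05 at 40 against 0 mM (adjusted p = 3e-06). A transcribed antisense gene, MRPL20-AS1, overlaps it. MRPL36 fell by 0.32 ± 0.08 at 20 and by 0.45 ± 0.08 at 40 against 0 mM (adjusted p = 0.014 and 0.00087). The first of these calls was lost in 3 of 19 other settings, with adjusted p up to 0.06. MRPL51, the most highly expressed large-subunit gene, fell by 0.23 ± 0.06 at 40 against 0 mM (adjusted p = 0.011), with 94.1, 101 and 82.7 FPKM at 40 mM against 106, 110 and 102 FPKM at 0 mM. MRPL57 fell by 0.19 ± 0.06 (adjusted p = 0.013), a call lost in 3 of 19 other settings. MRPL41 had 83.9, 89.4 and 63.7 FPKM at 40 mM against 80.2, 73.9 and 62.7 FPKM at 0 mM, which overlap, and was not called (adjusted p = 0.52). Without replicate 3 of 40 mM it rose by 0.22 (adjusted p = 0.041), while without replicate 2 of 40 mM its change was -0.001. MRPL46, of the central protuberance that faces the small subunit, was not called either, at -0.16 ± 0.08 (adjusted p = 0.1). It was called lower with the replicate block (adjusted p = 0.049) and without replicate 2 of 40 mM (adjusted p = 0.044).

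Of the 3 large-subunit genes called higher at 40 mM, MRPL40 and MRPL42 have mitochondrial names. MRPL40 had 15.9, 15.1 and 16.0 FPKM at 0 mM, 18, 17.6 and 17.1 FPKM at 20 mM and 20.6, 19.3 and 21.2 FPKM at 40 mM. Its groups did not overlap, and it rose by 0.16 ± 0.05 at 20 and by 0.34 ± 0.05 at 40 against 0 mM (adjusted p = 0.039 and 0.00025), and by 0.18 ± 0.05 at 40 against 20 mM (adjusted p = 0.025). The call at 20 against 0 mM was lost in 8 and that at 40 against 20 mM in 6 of 19 other settings, with adjusted p up to 0.14 and 0.092. It overlaps HIRA on the opposite strand. MRPL42 had 3.80, 4.04 and 4.32 FPKM at 0 mM, 4.49, 4.71 and 4.69 FPKM at 20 mM and 4.41, 4.74 and 4.52 FPKM at 40 mM; its changes of 0.19 ± 0.05 at 20 and 0.14 ± 0.05 at 40 against 0 mM passed the test (adjusted p = 0.015 and 0.039). These calls were lost in 5 and 8 of 18 other settings, with adjusted p up to 0.062 and 0.15. MRPL30, a relative of bacterial L30, was high at the middle dose only, with 13.9, 14.5 and 14.6 FPKM at 0 mM, 16.3, 17.3 and 16.3 FPKM at 20 mM and 14.3, 15.0 and 14.6 FPKM at 40 mM. It rose by 0.21 ± 0.04 at 20 against 0 mM (adjusted p = 0.0029) and fell by 0.22 ± 0.04 at 40 against 20 mM (adjusted p = 0.003). The means of MRPL43 ran the other way. It stood at 12.3, 12 and 12.1 FPKM at 0 mM, 10.9, 10.7 and 11.7 FPKM at 20 mM and 13.6, 12.9 and 13.0 FPKM at 40 mM, and rose by 0.22 ± 0.05 at 40 against 20 mM (adjusted p = 0.0071).

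In the small subunit, 3 relatives of the bacterial protein S18 exist in human cells and take different places in the ribosome. MRPS18B, in the small subunit, fell most of the family apart from MRPL53. It had 42.2, 41.9 and 40.0 FPKM at 0 mM, 30.7, 29.4 and 29.0 FPKM at 20 mM and 22.1, 23.9 and 21.8 FPKM at 40 mM, with wide gaps between the groups. MRPS18B fell by 0.48 ± 0.05 at 20 and by 0.90 ± 0.05 at 40 against 0 mM (adjusted p = 5.4e-05 and 2e-07). MRPS18C, the member at the bacterial S18 position, fell by 0.38 ± 0.06 at 40 against 0 mM (adjusted p = 0.00026), with 6.26, 7.07 and 6.16 FPKM at 40 mM against 8.14, 8.66 and 8.05 FPKM at 0 mM. MRPS18A, in the large subunit, had 22.2, 24.1 and 28.9 FPKM at 40 mM against 27.4, 29.1 and 28.2 FPKM at 0 mM. The groups overlapped through replicate 3 of 40 mM, and the change of -0.21 ± 0.08 missed the threshold (adjusted p = 0.052). Without that library MRPS18A fell by 0.32 (adjusted p = 0.00033). It was also called lower with DESeq2 (adjusted p = 0.033) and with the replicate block (adjusted p = 0.038). MRPS30, the other large-subunit protein with a small-subunit name, fell by 0.22 ± 0.05 (adjusted p = 0.0025).

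MRPS12 forms part of the decoding centre, where codon and tRNA meet. It had 25.4, 23.9 and 21.6 FPKM at 0 mM, 18.8, 17.3 and 18.1 FPKM at 20 mM and 19.4, 19.0 and 14.6 FPKM at 40 mM, so most of its fall was present at 20 mM. It fell by 0.39 ± 0.10 at 20 and by 0.45 ± 0.10 at 40 against 0 mM (adjusted p = 0.012 and 0.0025). The call at 20 against 0 mM was lost in 3 of 19 other settings, with adjusted p up to 0.052. MRPS12 overlaps SARS2 on the opposite strand. MRPS6, a relative of bacterial S6, followed the same course, with 7.82, 7.97 and 7.50 FPKM at 0 mM, 5.24, 5.61 and 5.69 FPKM at 20 mM and 5.74, 5.31 and 4.39 FPKM at 40 mM. It fell by 0.50 ± 0.09 at 20 and by 0.63 ± 0.09 at 40 against 0 mM (adjusted p = 0.0017 and 0.00012). Its gene overlaps that of the inositol transporter SLC5A3 on the same strand, so its counts are uncertain. MRPS28 had 17.8, 16.1 and 14.1 FPKM at 0 mM, 11.7, 12.7 and 12.1 FPKM at 20 mM and 11.0, 11.3 and 9.33 FPKM at 40 mM, and fell by 0.64 ± 0.10 at 40 against 0 mM (adjusted p = 0.00023).

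MRPS26 and MRPS33, both with mitochondrial names, had lower levels at each higher dose. MRPS26 had 62.7, 67.1 and 57.5 FPKM at 0 mM, 53.9, 54.5 and 51.8 FPKM at 20 mM and 46.7, 43.8 and 43.6 FPKM at 40 mM, and fell by 0.52 ± 0.06 at 40 against 0 mM (adjusted p = 2.8e-05). MRPS33 had 5.97, 5.86 and 5.65 FPKM at 0 mM, 5.12, 4.85 and 4.39 FPKM at 20 mM and 4.0, 4.20 and 3.46 FPKM at 40 mM, and fell by 0.62 ± 0.08 (adjusted p = 7.8e-05). The groups of both genes were separate at all 3 doses. MRPS34, the most highly expressed small-subunit gene, fell by 0.27 ± 0.05 at 40 against 0 mM, to 94.5, 90.1 and 91.4 FPKM against 108, 115 and 102 FPKM at 0 mM (adjusted p = 0.0012). MRPS5, which lies where the message enters, differed by -0.06 ± 0.05 and was not called (adjusted p = 0.27). MRPS36, the dehydrogenase subunit, fell by 0.32 ± 0.09 (adjusted p = 0.01) although its groups overlapped, with 18, 16.1 and 14.1 FPKM at 40 mM against 20.5, 20.5 and 17.9 FPKM at 0 mM.

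MRPS10 and MRPS35 were the small-subunit genes that rose. MRPS10, the relative of bacterial S10, had 15.3, 15.0 and 14.5 FPKM at 0 mM, 19.9, 18.2 and 20.2 FPKM at 20 mM and 18.2, 19.0 and 18.5 FPKM at 40 mM. It rose at 20 against 0 mM by 0.38 ± 0.05 (adjusted p = 0.00046), and by 0.28 ± 0.05 at 40 against 0 mM (adjusted p = 0.001). MRPS35, with a mitochondrial name, instead had 51.2, 46.6 and 48.5 FPKM at 0 mM, 49.9, 48.2 and 48.3 FPKM at 20 mM and 57.1, 60.5 and 53.7 FPKM at 40 mM. The 0 and 20 mM libraries overlapped, and it rose by 0.19 ± 0.05 at 40 against 0 mM and by 0.19 ± 0.05 at 40 against 20 mM (adjusted p = 0.0098 and 0.019); the second call was lost in 5 of 19 other settings.

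**Figure D4:**
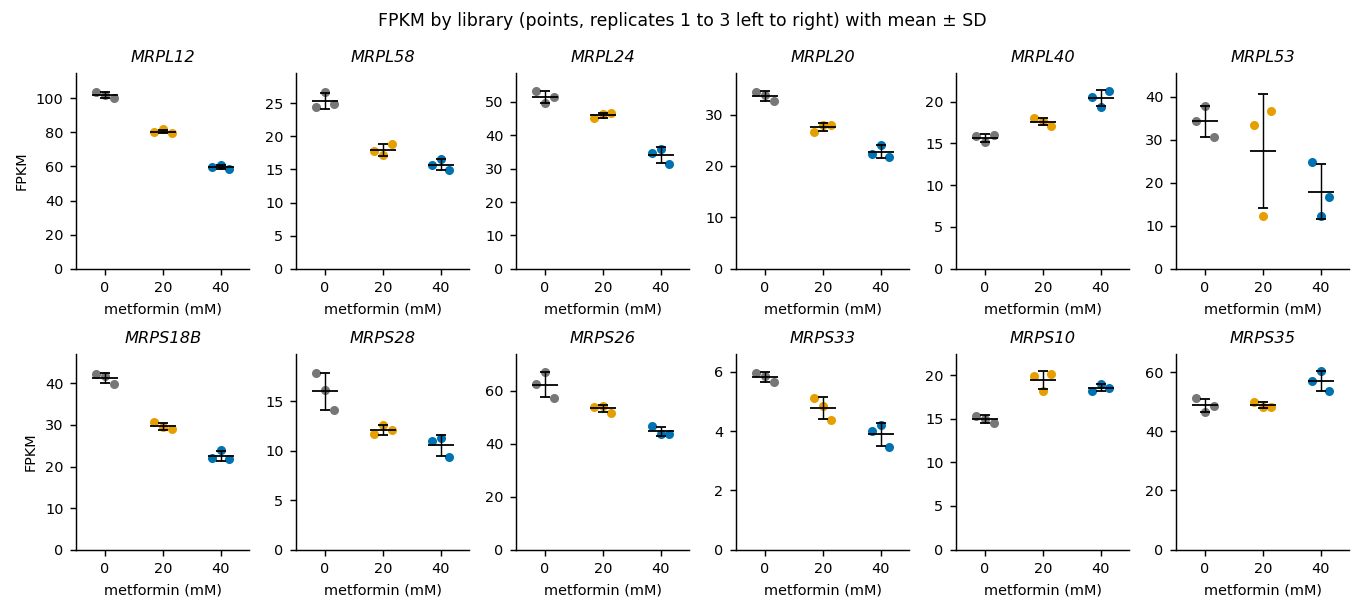
FPKM (y axis, from 0) against metformin dose in mM for 12 genes of the family; points are libraries, bars the mean ± SD of 3. MRPL12 and MRPS18B step down without overlap, MRPL40 steps up, MRPS10 is already high at 20 mM, MRPS35 is high only at 40 mM, and MRPL53 scatters between 12.2 and 36.6 FPKM in treated cells.

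Over the whole family, 30 of the 78 genes overlap another gene with a mean of at least 0.5 FPKM, 9 of them on the same strand. The libraries were strand-specific, but whether the counting used strand is not stated, and the share of reads from overlapping genes is unknown for those 30.

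Genes that work with the mitochondrial ribosome were looked at from lists fixed by function. Of 5 further subunits that carry other names, 2 fell and 2 rose at 40 against 0 mM. DAP3, a GTP-binding protein of the small subunit, fell by 0.24 ± 0.05 (adjusted p = 0.002), AURKAIP1 fell by 0.21 ± 0.07 (adjusted p = 0.023) and CHCHD1 rose by 0.21 ± 0.08 (adjusted p = 0.038). Without replicate 3 of 40 mM 1 of the 5 fell, and AURKAIP1 was not called (adjusted p = 0.06). Of 28 factors that assemble the ribosome or modify its RNA, 16 fell and 2 rose at 40 against 0 mM, and 10 fell and 2 rose at 20 against 0 mM, where 27.4% and 28.8% of all tested genes fell and rose at 40 mM and 15.2% and 16.3% at 20 mM. Without replicate 3 of 40 mM, 16 fell and 3 rose at 40 against 0 mM. Their median log2 fold changes, -0.23 at 40 mM and -0.12 at 20 mM stood beside -0.21 and -0.11 for the ribosomal proteins. TFB1M, which dimethylates the small-subunit RNA, fell by 0.72 ± 0.07 at 40 against 0 mM (adjusted p = 1.5e-05), with 4.6, 4.77 and 4.07 FPKM at 40 mM against 7.42, 7.00 and 7.29 FPKM at 0 mM. The methyltransferases of the large-subunit RNA MRM1 and MRM3 fell by 0.62 ± 0.10 and 0.57 ± 0.10 (adjusted p = 0.00037 and 0.00075).

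Of 17 factors of mitochondrial translation, 7 fell (41.2%) and 3 rose (17.6%) at 40 against 0 mM, against 27.4% and 28.8% of all tested genes, and the counts were 7 and 3 without replicate 3 of 40 mM as well. MTRF1, of the release factor family, rose by 0.78 ± 0.06 (adjusted p = 3.1e-06), to 7.05, 6.60 and 6.65 FPKM at 40 mM against 3.56, 3.99 and 4.02 FPKM at 0 mM. MTFMT, which formylates the initiator tRNA, fell by 0.46 ± 0.08 (adjusted p = 0.00041), and the recycling factor MRRF fell by 0.40 ± 0.08 (adjusted p = 0.0013). A further list held regulators of nuclear genes for mitochondria together with the factors that transcribe mitochondrial DNA (POLRMT, TFB2M and TFAM). Of its 11 tested genes, 5 fell (45.5%) and 1 rose (9.09%) at 40 against 0 mM, with and without replicate 3 of 40 mM. NRF1, a factor that activates such nuclear genes, fell by 0.51 ± 0.06 (adjusted p = 5.2e-05), the mitochondrial RNA polymerase POLRMT by 0.43 ± 0.06 (adjusted p = 0.00014) and the coactivator PPRC1 by 0.37 ± 0.06 (adjusted p = 0.00048).

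For the messages that the ribosome translates, the counts depended on 1 library. Of 13 mitochondrially encoded mRNAs, 3 fell (23.1%) and 1 rose (7.69%) at 40 against 0 mM, where 27.4% and 28.8% of all tested genes did, and none fell and 4 rose (30.8%) at 20 against 0 mM, where 15.2% and 16.3% did. Without replicate 3 of 40 mM, 8 fell and 1 rose at 40 against 0 mM, with a median of -0.30 in place of -0.11, against 28.3% and 29.3% of all tested genes. At 40 against 20 mM, 11 then fell and none rose, where 16.9% and 15.9% of all tested genes did. With all libraries 3 fell and 1 rose in that comparison, where 15.1% and 14.3% of all tested genes did. MT-ND1 rose by 0.53 ± 0.15 at 40 against 0 mM (adjusted p = 0.01), MT-ND3 fell by 0.30 ± 0.09 (adjusted p = 0.013) and MT-ND6 by 0.26 ± 0.10 (adjusted p = 0.047). Replicate 3 was the highest 40 mM library for MT-ND1, at 2406 FPKM against 1629 and 1707 FPKM in the others, and without it the rise was 0.32 ± 0.10 (adjusted p = 0.02). Libraries made from polyadenylated RNA capture these messages according to whatever tail each carries as well as its amount.

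The cytosolic ribosomal proteins, which build the ribosome that makes the mitochondrial ones, are set beside them. Of 79 genes, 7 fell at 20 against 0 mM, where 15.2% of all tested genes fell, while 54 fell at 40 against 0 mM, where 27.4% did. Their medians were -0.04 for 20 over 0 mM, -0.23 for 40 over 0 mM and -0.19 for 40 over 20 mM. The mitochondrial family had medians of -0.11, -0.21 and -0.09 in the same comparisons. Without replicate 3 of 40 mM, 55 cytosolic genes fell at 40 against 0 mM and 16 at 20 against 0 mM, where 28.3% and 19.9% of all tested genes fell. Medians at 40 over 0 mM and 40 over 20 mM were then -0.17 and -0.13 for the cytosolic and -0.18 and -0.05 for the mitochondrial family. RPL10, RPLP0 and RPS26 changed most among the cytosolic genes at 40 against 0 mM, and fell by 0.59 ± 0.08, 0.51 ± 0.05 and 0.49 ± 0.06 (adjusted p = 0.00014, 5.1e-06 and 6.8e-05). The difference between the families was not tested.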

How the data were processed

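Polyadenylated RNA of A375 cells was sequenced in libraries that keep strand through dUTP marking, per the labels' protocols. Read counts per gene and library were deposited by the authors, per the file headers. The deposited table also holds FPKM values; 99.99% of values over 13121 genes equal the count times a gene and a library factor within 0.05 on the log2 scale. StringTie 2.1.6 is named in the submitters' processing notes, with no role. Aligner, build and strand setting: not given in the sources used here; in 65 of 69 members with a RefSeq promoter the 5′ end lay within 1000 bases of a GRCh38.p14 start.

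Genes with a mean of at least 1 FPKM, 12394 in all, were tested on the counts in 1 fit of all 9 libraries (edgeR 4.0.16 quasi-likelihood, TMM, R 4.3.3), with Benjamini-Hochberg adjustment over all of them and a threshold of 0.05. The SE is the log2 fold change over the square root of F. At these depths the spread between libraries sets the precision. Alternatives were limma 3.58.1 on log2(FPKM + 1), DESeq2 1.42.0, other scalings and filters, a replicate block, the 6 libraries compared alone, and leaving out each library; values of the other lists without replicate 3 of 40 mM were added after seeing the data.

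The genes described in full were, per subunit, the called genes with the most negative and most positive changes, those of highest and lowest mean level, and a fixed set (MRPL10 to MRPL12, MRPL45, MRPL57, MRPL58, MRPS12, MRPS18A to MRPS18C, MRPS30, MRPS36), and up to 3 called genes of each other list. The members, the lists and these rules were chosen with earlier results of these data known. Counts and medians over members are descriptions; no test was run over them. The script was tested on simulated counts.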

Additional observations from a re-analysis of the deposited data

How the results depend on the processing

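The 43 genes that fell at 40 against 0 mM ran from 30 at an adjusted p under 0.01 to 45 with the replicate block, and no called member changed direction under any alternative. At 20 against 0 mM the 23 that fell became 15 with no filter on low values and 10 under 0.01, and the 4 that rose became 2 under 0.01. Of all genes in the fit, 31.6% were called in the main setting, 8.41% with no filter and 17.5% under 0.01. At 40 against 0 mM the 5 that rose became 3 with no filter, 3 in the 6 libraries alone and 3 under 0.01. Of all genes in the fit, 56.2% were called in the main setting and 20.5%, 51.8% and 42.5% in these 3. At 40 against 20 mM the 14 that fell became 9 under 0.01, and the 3 that rose became 1 with no filter and 1 under 0.01. Of all genes in the fit, 29.3% were called in the main setting, 7.51% with no filter and 15% under 0.01. In the 6 libraries of 20 and 0 mM alone 32 fell, where 39.1% of all tested genes were called, and without replicate 3 of 40 mM 31 fell, where 40.1% were. A stricter threshold gives fewer calls by construction; for the other settings the cause was not tested. Leaving out 1 library gave 12 (without replicate 1 of 0 mM) to 31 (without replicate 3 of 40 mM) falls and 2 to 4 rises at 20 against 0 mM, 36 to 42 falls and 3 to 9 rises at 40 against 0 mM, and 11 to 16 falls and 1 to 6 rises at 40 against 20 mM; the upper counts of rises, 9 and 6, came without replicate 3 of 40 mM. Of all tested genes, 22% to 40.1%, 48.8% to 57.6% and 19.4% to 32.8% were called over these runs in the 3 comparisons. In the same runs the large minus small difference ran from -0.018 to 0.019, from 0.012 to 0.099 and from -0.00044 to 0.064.

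Correlations between doses of the libraries' deviations from their group mean ran from -0.101 to 0.186 for same-numbered libraries. For differently numbered libraries they ran from -0.191 to 0.124. With 3 libraries per dose, these overlapping ranges cannot settle whether the replicate numbers pair the libraries. With the replicate block 25 genes fell and 4 rose at 20 against 0 mM, 45 and 4 at 40 against 0 mM, and 20 and 4 at 40 against 20 mM. Of all tested genes, 34.3%, 58.2% and 32.1% were then called, against 31.6%, 56.2% and 29.3% without the block.

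Directions turned only in members that were not called. MRPL30 at 40 against 0 mM was 0.0171 at a mean FPKM of at least 5, 0.0447 with library totals alone, and 0.0251 and 0.0267 with limma at pseudocounts of 1 and 0.1. MRPL11 at 40 against 20 mM was 0.0218 with library totals alone and 0.0124 and 0.0128 with limma. MRPS35 at 20 against 0 mM was 0.0128 at a mean FPKM of at least 5, 0.0132 with library totals alone and 0.00178 and 0.00183 with limma, and MRPS5 at 40 against 20 mM was 0.00516 with library totals alone. Over the runs that each left out 1 library, the log2 fold change ran from -0.0796 to 0.00275 for MRPL10, from -0.121 to 0.0624 for MRPL41, from -0.586 to 0.0271 for MRPL53 (the positive value without replicate 2 of 20 mM) and from -0.0387 to 0.0412 for MRPS35 at 20 against 0 mM. It ran from -0.0224 to 0.00947 for MRPL30 and from -0.00101 to 0.224 for MRPL41 at 40 against 0 mM, and from -0.0903 to 0.0228 for MRPL11, from -0.128 to 0.0213 for MRPL46, from -0.137 to 0.0529 for MRPS12 and from -0.061 to 0.00699 for MRPS5 at 40 against 20 mM.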
